A study of Mus musculus with 2 samples.

Results

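The 6 genes that encode the conventional actins of the mouse, Actb, Actg1, Acta2, Actg2, Actc1 and Acta1, were described in the developing stomach. They were chosen by gene symbol, and all 6 were found among the 43346 Ensembl genes of the tables. Whole stomachs of B6NCrl embryos at embryonic day 15.5 gave the total RNA that was sequenced, with male and female embryos pooled and labelled healthy. The series holds 1 group with 2 biological replicates and no other condition: replicate 1 is a pool of 78 embryos and replicate 2 a pool of 62. Both pools carry the same donor label, so whether they came from separate matings is not known. Each library was made from 10 ng of RNA longer than 200 nucleotides with ERCC spike-ins added.

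Actin monomers join into filaments that carry the cell cortex, cell movement and, together with myosin, contraction. Mammals make cytoplasmic beta and gamma actin in nearly every cell, alpha and gamma smooth muscle actin in the muscle of vessels and viscera, and cardiac and skeletal alpha actin in striated muscle. The proteins are nearly identical, differ most at the amino end, and are told apart in RNA by their synonymous codons and untranslated regions. In the stomach wall at this stage the mesenchyme forms smooth muscle layers around the epithelium, and gamma smooth muscle actin is known as the enteric form.

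The first 20 codons of each gene are printed because this stretch separates the actins most. They come from the transcripts of GENCODE M21 on GRCm38, the build of the deposited tables (mm10), and all 6 genes lie on the minus strand. Capitals mark codons whose amino acid is not shared by all 6 genes at that position of the alignment.
Actb, transcript Actb-201, chromosome 5, first coding base 142905686: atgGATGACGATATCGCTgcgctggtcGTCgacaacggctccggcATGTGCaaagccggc
Actg1, transcript Actg1-202, chromosome 11, first coding base 120348091: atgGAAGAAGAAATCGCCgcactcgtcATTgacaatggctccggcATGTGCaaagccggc
Acta2, transcript Acta2-201, chromosome 19, first coding base 34252553: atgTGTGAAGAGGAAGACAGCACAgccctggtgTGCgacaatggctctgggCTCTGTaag
Actg2, transcript Actg2-201, chromosome 6, first coding base 83527441: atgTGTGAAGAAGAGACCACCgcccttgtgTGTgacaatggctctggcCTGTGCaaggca
Actc1, transcript Actc1-201, chromosome 2, first coding base 114052031: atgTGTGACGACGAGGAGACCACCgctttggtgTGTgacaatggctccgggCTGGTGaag
Acta1, transcript Acta1-201, chromosome 8, first coding base 123893697: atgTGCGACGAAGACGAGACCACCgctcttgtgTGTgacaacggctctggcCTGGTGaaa
The 4 muscle genes carry a cysteine codon directly after the start codon and the cytoplasmic pair does not. All 6 genes encode a run of acidic residues near the start.

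Of the 377 aligned codon positions, 348 encoded the same amino acid in all 6 genes, 10 of the 29 variable positions lay in the first 20, and the other 19 were spread over the rest. Actb and Actg1 differed in 4 amino acids but in 121 synonymous codons, so their coding bases were 88.6% identical. Acta2 and Actg2 differed in 3 amino acids, 1 codon present in one gene alone and 164 synonymous codons, with 84.3% of bases identical. The corresponding values for Actc1 and Acta1 were 4 amino acids, 146 synonymous codons and 86.3%. Between the classes, Actb and Acta2 differed in 22 amino acids and 143 synonymous codons. The pair of genes in each class thus differed mainly at synonymous positions, as did every pair between classes. No stretch of 100 bases was shared between transcripts of any 2 of the 6 genes.

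The tables held 43209506 expected counts on genes for replicate 1 and 44257493 for replicate 2, where an expected count is an estimated number of reads with multiply matching reads divided among features. Spike-ins took 1.88% and 2.999% of all counts. Markers of the labelled tissue were present: the 3 markers of stomach mesenchyme (Barx1, Tcf21, Nkx2-5) and the 4 of its epithelium (Krt8, Sox2, Gata4, Krt4) were all detected, which here means at least 1 TPM in both libraries. Krt4, a keratin of squamous epithelium such as the forestomach lining, had 768.5 TPM in replicate 1 and 318 TPM in replicate 2 (log2 ratio 1.31). The other epithelial markers did not share this difference: Krt8 was level (0.03), Sox2 was somewhat higher in replicate 1 (0.31) and Gata4 was lower (-0.51). The part of the Krt4 difference in the actin values was not tested. All 6 smooth muscle markers (Myh11, Cnn1, Tagln, Smtn, Des, Lmod1) were detected. No molecular identifiers are recorded, so the counting intervals below cover counting error only. In whole tissue, fewer cells of a type and less RNA per cell cannot be told apart. Errors are SDs over the 2 libraries (n = 2), and with 1 group no test between conditions exists.

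Actin RNA was abundant in both pools and was mostly cytoplasmic. The 6 genes together had 9930.34 and 9671.28 TPM in replicates 1 and 2, which came from 1.22% and 1.16% of the counts on genes. TPM is a transcript's share of the library's transcripts after division by effective length, scaled to a fixed total, so levels of different genes may be compared. All 6 genes were detected, against 64.5% of protein-coding genes and 35.9% of all genes, so detection itself does not set them apart. Actb, Actg1, Acta2 and Actg2 exceeded 1000 TPM in both libraries, a level reached by 0.238% of genes (103 of 43346). The order of the 6 genes was the same in both libraries, and no gene's values overlapped those of its neighbour in that order.

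Actb, the cytoplasmic beta actin widely used as a reference gene (ENSMUSG00000029580, chr5:142903115-142906754), was the highest of the 6 with 5140.19 TPM in replicate 1 and 4768.63 TPM in replicate 2. Its mean placed it at rank 7 among the 21474 protein-coding genes, between the globin gene Hbb-bt and Ppia, which encodes cyclophilin A. Actg1, the cytoplasmic gamma actin (ENSMUSG00000062825, chr11:120345690-120348542), had 2057.9 and 2088.34 TPM in replicates 1 and 2. It stood at rank 22, between the ubiquitin gene Ubb and the ribosomal protein gene Rps19. Actb was 2.50-fold higher than Actg1 in replicate 1 and 2.28-fold higher in replicate 2, a log2 level ratio of 1.26 ± 0.09. The 2 cytoplasmic genes made up 72.5% and 70.9% of the summed actin TPM. Actb alone held 51.8% and 49.3%, and Actg1 held 20.7% and 21.6%. Actb's share was thus the larger in both pools, and its level moved more between them (SD of 263 TPM) than that of Actg1 (SD of 21.5 TPM).

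**Figure D1:**
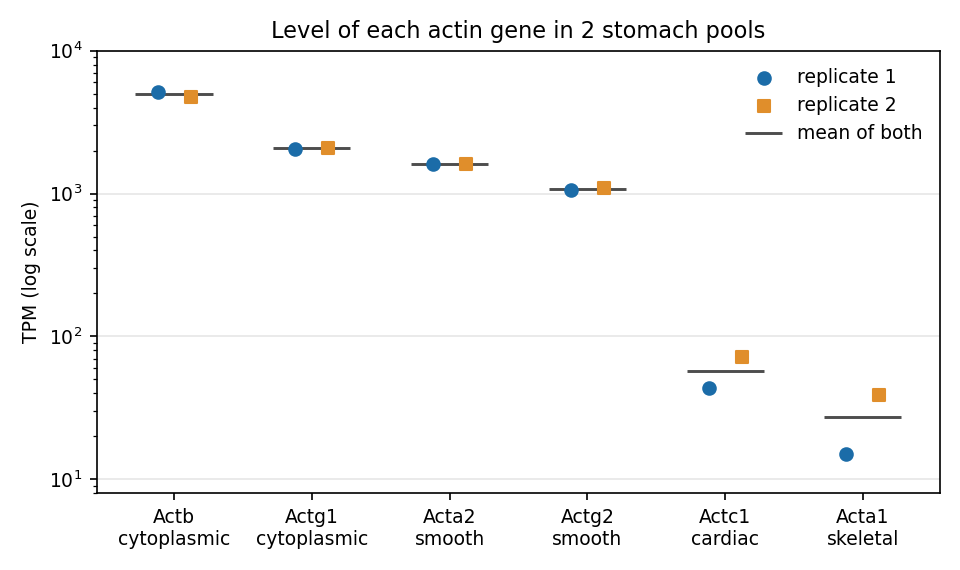
TPM on a log axis for each of the 6 actin genes, with a circle for replicate 1, a square for replicate 2 and a line at their mean. The cytoplasmic and smooth muscle actin genes lie between 1060.48 and 5140.19 TPM with the pools close together, and the cardiac and skeletal actin genes lie between 15.13 and 71.54 TPM with replicate 2 above replicate 1.

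The smooth muscle actins came next. Acta2, the alpha smooth muscle actin of vascular and visceral muscle, pericytes and myofibroblasts (ENSMUSG00000035783, chr19:34241090-34255590), had 1613.04 and 1607.49 TPM in replicates 1 and 2 and stood at rank 34 among protein-coding genes. It lay between the histone gene H3f3a and Fth1, which encodes ferritin heavy chain. Actg2, the enteric gamma smooth muscle actin (ENSMUSG00000059430, chr6:83512905-83536265), had 1060.48 and 1096.19 TPM and stood at rank 80, between the ribosomal protein genes Rps3a1 and Rplp2. Acta2 exceeded Actg2 1.52-fold in replicate 1 and 1.47-fold in replicate 2, a log2 level ratio of 0.58 ± 0.04. By deposited TPM the vascular and visceral alpha form was therefore the more abundant smooth muscle actin RNA in both pools, by more than the spread between them. Without division by length the log2 ratio was 1.06, because the Actg2 transcripts are shorter. Acta2 was quantified at 1781 bases, while its transcript Acta2-201 has 2035 bases in GENCODE M21. A longer length lowers TPM, and the ratio at that length was not computed. The step from Actg1 down to Acta2 was smaller, with log2 level ratios of 0.35 in replicate 1 and 0.38 in replicate 2.

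Together the smooth muscle actins took 26.9% of the summed actin TPM in replicate 1 and 28.0% in replicate 2. Their log2 level ratio to the cytoplasmic pair was -1.43 and -1.34 (-1.39 ± 0.06). Acta2 held 16.2% and 16.6% of the sum and Actg2 10.7% and 11.3%. The smooth muscle kinds were thus the smaller but still a large part of actin RNA in each pool.

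The striated muscle actins were present at a low level that differed between the pools. Actc1, the cardiac alpha actin, which embryonic skeletal muscle also makes (ENSMUSG00000068614, chr2:114047282-114053548), had 43.6 TPM in replicate 1 and 71.54 TPM in replicate 2, from 1842 and 3048 counts. Acta1, the skeletal alpha actin (ENSMUSG00000031972, chr8:123891769-123894751), had 15.13 and 39.09 TPM, from 623 and 1617 counts. The median detected gene had 15.28 and 15.465 TPM, so Actc1 lay above it in both libraries, and Acta1 lay just below it in replicate 1 and above it in replicate 2. The neighbours by mean level among protein-coding genes were Ptpn2, a protein tyrosine phosphatase gene, and Malsu1 for Actc1 (rank 2740), and Depp1 and Gtf2f2, a general transcription factor subunit gene, for Acta1 (rank 5233). Actg2 stood 24.3-fold above Actc1 in replicate 1 and 15.3-fold above it in replicate 2, the widest step in the order. Actc1 exceeded Acta1 2.88-fold in replicate 1 and 1.83-fold in replicate 2, and this log2 level ratio (1.20 ± 0.46) had a wide spread. The striated pair held 0.591% of the summed actin TPM in replicate 1 and 1.14% in replicate 2.

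**Figure D2:**
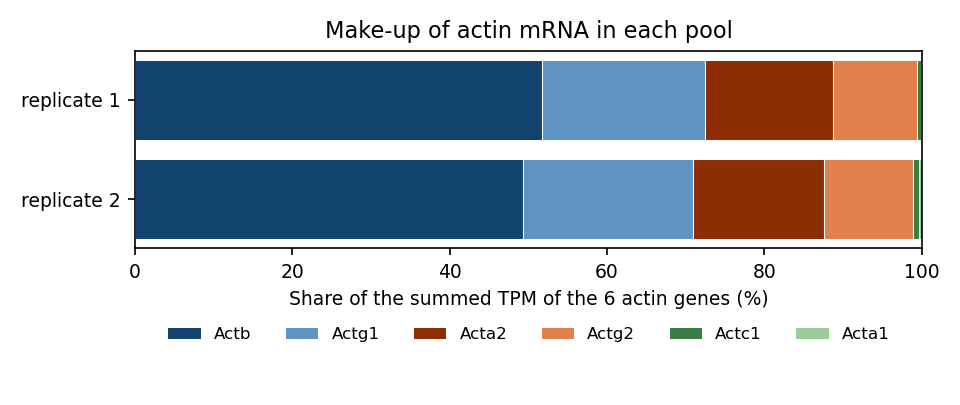
Share of each gene in the summed TPM of the 6 actin genes (%), one bar for each pool, with cytoplasmic genes in blue, smooth muscle genes in brown and orange and striated muscle genes in green. Actb takes 51.8% in replicate 1 and 49.3% in replicate 2, and the striated pair takes 0.591% and 1.14%.

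On gene-count scaling the 4 abundant actin genes were close between the pools and the striated pair was not. On counts scaled by TMM library sizes, the log2 ratio of replicate 1 over replicate 2 was 0.14 for Actb (95% counting interval 0.13 to 0.15), 0.04 for Acta2 (0.027 to 0.055), 0.02 for Actg1 (0.0067 to 0.030) and -0.01 for Actg2 (-0.030 to 0.0098). For comparison, the median absolute log2 ratio was 0.086 over the 10776 genes with 1000 counts or more in both libraries together, so Acta2, Actg1 and Actg2 lay within that median and Actb beyond it. The ratio was -0.68 (-0.77 to -0.60) for Actc1 and -1.33 (-1.47 to -1.20) for Acta1, so both were lower in replicate 1 by more than counting error. Acta1 alone was at least 2-fold apart, 2.52-fold higher in replicate 2. Among all genes compared, 9.81% were at least 2-fold apart in either direction and 1.97% were at least 2-fold lower in replicate 1. Among genes with at least 1000 counts, to which Acta1 belongs, 1.13% were at least 2-fold apart. Scaled by the spike-ins instead, every log2 ratio moved up by 0.68, which took Actc1 to -0.0042 and Acta1 to -0.65. The 4 abundant genes then lay between 0.67 (Actg2) and 0.82 (Actb). The closeness of those 4 genes thus rests on scaling to gene counts. So do the lower level of Actc1 in replicate 1 and the 2-fold call of Acta1. The gap between the striated pair and the other 4 genes does not depend on that scaling.

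A list of striated muscle genes, which holds sarcomere proteins together with regulators, channels and other muscle markers, was mostly lower in replicate 1 on gene-count scaling. Of its 34 genes 24 were detected, a share close to the 64.5% of protein-coding genes, led by Tnnt1, slow skeletal troponin T (20.86 and 26.91 TPM in replicates 1 and 2), Myl7, the atrial myosin light chain (20.65 and 25.02 TPM), and Tnnt2, cardiac troponin T (15.27 and 21.05 TPM). Of the 32 with enough counts to compare, 25 were lower in replicate 1, with a median log2 ratio of -0.41, against 49.4% lower and a median of 0.003 over all 20918 genes compared. At least 2-fold lower in replicate 1 were 8 of the 32, and 1 was at least 2-fold higher. Spike-in scaling, an alternative added after seeing the data, moved the log2 ratio of every gene up by 0.68. On that scaling 13 of the 32 were lower in replicate 1 and the median log2 ratio was 0.27. Myog and Myh3 were the 2 that remained at least 2-fold lower. The direction of the list thus rests on the scaling, while its distance from the median over all genes does not.

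The 8 genes were the troponin genes Tnnc2 (-1.05) and Tnnt3 (-1.32) of fast skeletal fibres, the Z-disc gene Actn2 (-1.67), the thick filament gene Mybpc1 (-1.06), the giant sarcomere genes Neb (-1.11) and Ttn (-1.13), embryonic myosin Myh3 (-1.90) and the myogenic transcription factor gene Myog (-1.69), each as a log2 ratio of replicate 1 over replicate 2. The exception was Myl2, the ventricular and slow muscle light chain, with a log2 ratio of 1.19 from 145 and 65 counts.

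Markers of skeletal and of cardiac muscle, all of them also in the striated list, were low. At 1 TPM in both libraries 4 of 6 skeletal markers were detected, without Myod1 (0.66 and 1.07 TPM in replicates 1 and 2) and Myh3 (0.82 and 3.16 TPM), and 4 of 5 cardiac markers, without Myh6 (0.78 and 0.61 TPM). All 6 skeletal muscle markers (Myog, Myod1, Ckm, Mylpf, Tnnt3, Myh3) were lower in replicate 1, with a median log2 ratio of -1.01, summed levels of 31.83 and 51.94 TPM in replicates 1 and 2, and none at 0. With spike-in scaling 4 of the 6 were lower in replicate 1 and the median log2 ratio was -0.33. Of the 5 cardiac markers (Myh6, Myl7, Nppa, Tnni3, Tnnt2), 2 were lower in replicate 1, the median log2 ratio was 0.06, the summed level was 44.16 and 53.77 TPM, and none was at 0. With spike-in scaling 0 of the 5 were lower in replicate 1, at a median log2 ratio of 0.74. That scaling moved every gene up by 0.68, the markers of both sets included. On gene-count scaling 49.4% of all genes compared were lower in replicate 1. Both summed levels were far below that of Acta2, and whether the 2 marker sets differed from each other was not tested. The part of muscle from neighbouring organs in the Acta1 and Actc1 levels was not tested.

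**Figure D3:**
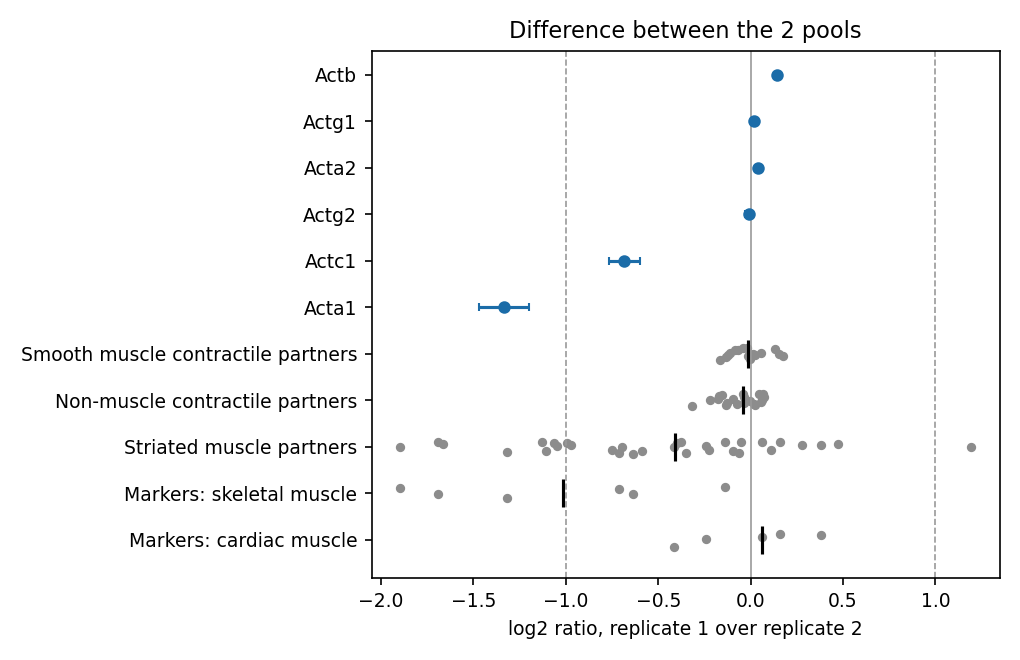
Log2 ratio of replicate 1 over replicate 2 on TMM-scaled counts: blue points with 95% counting intervals for the 6 actin genes, and grey points with a black median for genes of 5 lists, with dashed lines at 2-fold. Actc1 (-0.68) and Acta1 (-1.33) lie left of the other 4 actin genes, and the smooth muscle partners gather around 0 while the striated partners reach from -1.90 to 1.19.

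On gene-count scaling the smooth muscle partners of actin were close between the pools. All 16 listed genes were detected, against 64.5% of protein-coding genes, with a median log2 ratio of -0.02. None was 2-fold apart, against 1.13% of genes with at least 1000 counts, a class that holds all 16. Closeness between the pools therefore does not set them apart. The highest were Myl6, the alkali light chain of smooth and non-muscle myosin (1376.26 and 1397.61 TPM in replicates 1 and 2), Myl9, the regulatory light chain (1031.41 and 1065.46 TPM), and the tropomyosin gene Tpm1 (897.05 and 843.45 TPM). Of these, Myl6 lay between Actg2 and Acta2 in level, and Myl9 and Tpm1 lay below Actg2 in both libraries. The 7 pericyte and vascular mural genes, whose cells can also make Acta2, were all detected. On gene-count scaling all 7 were lower in replicate 1 (median log2 ratio -0.22), against 49.4% of all genes compared. With spike-in scaling, which moved every gene up by 0.68, 0 of the 7 were lower (median 0.46). The highest were Kcnj8 (49.29 and 63.33 TPM), a potassium channel gene, Mcam (31.45 and 35.02 TPM), an adhesion molecule gene, and Pdgfrb (27.95 and 33.36 TPM), the PDGF receptor of mural and mesenchymal cells. The share of mural cells in the Acta2 level was not tested. The 20 non-muscle contractile partners were all detected as well, led by Tpm4, Cnn3 and Tpm3, with a median log2 ratio of -0.04.

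The actin monomer and its assembly are handled by several protein families. All 19 monomer-binding and turnover genes were detected, against 64.5% of protein-coding genes, with medians of 144 and 148 TPM in replicates 1 and 2. The highest, Tmsb4x, encodes the monomer-sequestering thymosin beta 4 and had 4104.28 and 3977.45 TPM, within the range of Actb and Actg1. Cfl1, which encodes the filament-severing cofilin, had 1594.37 and 1614.32 TPM, and Pfn1, which encodes the nucleotide-exchanging profilin, had 1396.12 and 1664.4 TPM. All 9 genes of the Arp2/3 complex, which starts branched filaments, were detected at a median of 241 and 215 TPM, led by Arpc2, Arpc4 and Actr3. Formins and other nucleators, which start unbranched filaments, were far lower, with 16 of 20 detected and a median of 4.19 and 4.26 TPM. Their highest members were Fmnl3, the smooth muscle leiomodin Lmod1 and Diaph3. Of the 20, the muscle leiomodin Lmod3 alone was at least 2-fold apart (log2 ratio -1.06, from 10 and 22 counts), against 9.81% of all genes compared.

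Actin genes are classic targets of serum response factor (SRF), which binds the CArG box and works with myocardin and with myocardin-related factors that sense free actin monomer. All 10 matched genes of that pathway were detected, against 64.5% of protein-coding genes, at a median of 18.9 and 20.1 TPM in replicates 1 and 2. Rhoa, the small GTPase upstream of the pathway, had 372.53 and 368.23 TPM, and Myocd, which encodes myocardin, had 30.26 and 39.78 TPM. Fhl2, which encodes a LIM domain cofactor, had 59.13 and 60.64 TPM. Srf itself was the lowest of the 10, with 4.45 and 4.38 TPM. None of the 10 was 2-fold apart, against 1.13% of genes with at least 1000 counts, a class that holds all 10.

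Promoters were read from RefSeq on GRCm38.p6, 250 bases before to 50 after the start site, for the 4 genes in the table (Actg1, Acta2, Actc1 and Acta1), and the boxes are shown because they are the sequence through which this pathway is known to act. Each line gives 30 bases on the minus strand, with the box in capitals.
Actg1, chr11:120348566-120348595, CArG box whose first base lies 90 bases before the start site: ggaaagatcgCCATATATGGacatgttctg
Acta2, chr19:34255438-34255467, box with 1 mismatch, 84 bases before: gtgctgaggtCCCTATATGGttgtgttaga
Actc1, chr2:114053031-114053060, box with 1 mismatch, 175 bases before: ctccctagctCCCTATATGGccattgctct
Actc1, chr2:114052903-114052932, CArG box, 47 bases before: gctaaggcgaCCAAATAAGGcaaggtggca
Acta1, chr8:123894829-123894858, CArG box, 73 bases before: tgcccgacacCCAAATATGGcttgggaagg
An exact CArG box was in 3 of the 4 promoters, against 1.63% of the 32851 promoters in the table (535). The Acta2 window held none that was exact and 2 with 1 mismatch, of which one has the same letters as a box in the Actc1 window. Counting boxes with up to 1 mismatch, all 4 held at least 1, against 9.98% of all promoters. A CArG box reads the same way on either strand, so both strands were covered. The Acta2 boxes lie within the first exon of Acta2-201 in GENCODE M21, which starts further upstream than the RefSeq transcript, and those of Actc1 lie upstream of Actc1-201 and inside an intron of the minor transcript Actc1-202. A match in letters does not show that the factor bound there.

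Among the genes with more than 1 quantified transcript, Actb and Actc1 had 1 dominant form, and the estimated output of both gamma actins was divided. Actb-201 held 99.35% of Actb in replicate 1 and 99.62% in replicate 2, and the transcript Actb-204, which retains an intron, held 0.36% and 0.13%. Actc1-201 held 99.54% and 100%. Acta2 and Acta1 each had a single quantified transcript, so its share was fixed in advance. Acta2-202 and Acta1-202, which GENCODE M21 also lists, were not quantified. Nearly all reads of Actb and of Actc1 were thus given to 1 coding transcript.

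For Actg2, Actg2-201 held 60.48% in replicate 1 and 51.09% in replicate 2, at 641.39 and 560.08 TPM. Actg2-202 held 38.1% and 48.27%, at 404.02 and 529.1 TPM. Both transcripts encode the same protein from a shared start codon and differ in the first exon, which lies in the 5′ untranslated region: 86 bases at chr6:83536180-83536265 for Actg2-201 and 33 bases at chr6:83527958-83527990 for Actg2-202. Their start sites lie 8275 bases apart, and Actg2-201 also runs 7 bases further at the 3′ end. By these shares the transcript from the upstream start was the main one in replicate 1, and the pair was nearly level in replicate 2. The deposited credibility bounds of the Actg2-201 level ran from 606 to 664 TPM in replicate 1 and from 522 to 586 TPM in replicate 2, and did not overlap. Those of Actg2-202 ran from 360 to 420 TPM and from 482 to 549 TPM, and did not overlap either. Few reads can separate the transcripts, since 93 windows of 100 bases are found in Actg2-201 and not in Actg2-202, and 33 the other way round. The estimated levels of the 2 transcripts thus differed between the pools in opposite directions, while the Actg2 gene level in TPM was nearly the same in both. The split rests on reads near the transcript ends. Whether coverage there differed between the libraries was not tested.

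For Actg1, Actg1-202 held 69.9% in replicate 1 and 64.16% in replicate 2, and Actg1-204 held 28.28% and 34.27%. Actg1-204 lies wholly inside the sequence of Actg1-202, lacks 125 bases at its ends and has no 100-base window of its own. Its share therefore rests on how reads were spread along the longer transcript. The other 7 Actg1 transcripts, among them forms that retain introns, held at most 0.78% each.

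**Figure D4:**
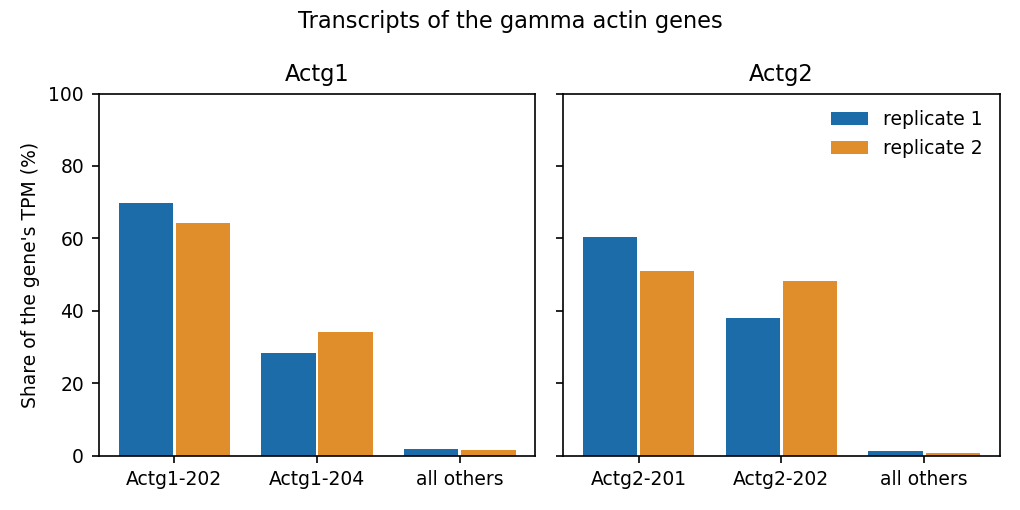
Share of the gene's TPM (%) on the main transcripts of Actg1 and Actg2 and on all others, with replicate 1 left of replicate 2. Actg2-201 and Actg2-202 are further apart in replicate 1 (60.48% and 38.1%) than in replicate 2 (51.09% and 48.27%).

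Actg1 shared the most sequence with other genes, and Actb a little. Of the 1853 windows of 100 bases in Actg1-202, 946 (51.1%) also occurred in transcripts of other genes, and in the coding part 943 of 1026 did. These genes are processed pseudogenes, intronless copies of the mRNA: Gm12715 shared 823 windows, Gm8399 shared 327 and Actg-ps1 shared 89. Gm16385 shared 93, Gm8543 shared 48 and Gm6375 shared 25, and the tables used here give no counts for these 3. Gm12715 was given 3011.39 counts in replicate 1 and 672.54 in replicate 2, Gm8399 was given 552.93 and 148.61, and Actg-ps1 was given 68.11 and 27.71. Each of the 3 pseudogenes with counts had more of them in replicate 1 than in replicate 2, while Actg1 itself had 114143 and 116035 counts. Added to Actg1, these 3 made up 3.08% of the sum in replicate 1 and 0.726% in replicate 2, and left the order of the 6 genes as it was, at 2177.39 and 2117.01 TPM for the sum. Whether the pseudogene counts are reads of Actg1 was not tested.

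Actb shared 20 of 1821 windows (1.10%), with the protein-coding gene Lrrc58 and the pseudogene Gm15725, and Gm15725 had 425.11 counts in replicate 1 and 0 in replicate 2. Acta2, Actg2, Actc1 and Acta1 shared no window with another gene, and their expected counts were whole numbers in both libraries at a tolerance of 0.005. Genes annotated on the opposite strand took almost nothing: Gm20388 over Acta1 had 0 and 0.02 counts in replicates 1 and 2, and A530058N18Rik over Actc1 had 0 and 6.21. The miRNA genes Gm23419 and Mir6935 inside Actg1 had 0 counts in both libraries. Reads of the 4 muscle actins thus had no other annotated gene to be divided with at this length. Without a stated strand setting, reads of a gene and of its antisense partner cannot be told apart.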

How the data were processed

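Total RNA of 2 pools of E15.5 stomachs was measured. For each library the authors deposited 1 table of genes and 1 of transcripts. The text file beside them names build mm10 and annotation M4. Not given in the sources used here were the aligner, the quantification program, versions and the strand setting. Per the file headers, the authors gave expected counts (43209506 and 44257493 on genes), TPM and FPKM, each also as a posterior mean where offered, credibility bounds of TPM whose level is not given, and each transcript's percent of its gene's TPM. TPM was scaled by the authors over all features, and spike-ins took 4.01% and 6.51% of it.

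Symbols and coordinates came from GENCODE M21 by gene identifier (42462 of 43346 genes). Expected counts were rounded to whole numbers. Ratios of replicate 1 over replicate 2 used TMM sizes from edgeR 4.0.16 (R 4.3.3) over 20918 genes (10 counts or more in both libraries together), a prior count of 0.5 and exact Clopper-Pearson 95% intervals (SciPy 1.17.1), and genes were called apart at 2-fold. No test was run, since there is 1 group. The calculation was tested on simulated data. Spike-ins and numeric features stayed out of library sizes. Translated coding sequences were aligned with MAFFT 7.526, and the codons were placed on that alignment. The 100-base windows correspond to the deposited effective lengths.

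The named genes were the 6 actins and the 3 highest members of each of the 11 lists. Also named were members at least 2-fold apart with at least 20 counts, protein-coding neighbours in level and genes that share sequence with an actin. Srf and the cell type markers were named too. The actins and the lists were chosen with earlier results of these data known. The symbols Mkl1 and Mkl2 did not match, while Mrtfa and Mrtfb, their later symbols, did. Alternatives comprised DESeq2 1.42.0 sizes, gene totals, spike-in totals, other units, thresholds and each library left out.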

Additional observations from a re-analysis of the deposited data

How the results depend on the processing

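Beside the values without one library, 121 values were recomputed for 45 results. Of these, 39 moved beyond the spread between libraries, the counting interval or, for a count of genes, a factor of 1.5. A change of direction was looked for only in library ratios called apart, which was Acta1 alone, and Acta1 kept its direction. Small ratios did change sign, as for Actg1 with deposited TPM and Actg2 with spike-in totals. No paired analysis was possible because the series has 1 group. With 2 libraries, leaving one out gives the other library's value, which by construction lies within the SD of the mean, so those 44 values say nothing about stability. With TPM over genes alone, the mean levels were 5227.80 for Actb, 2188.81 for Actg1, 1699.92 for Acta2 and 1138.65 for Actg2. Scaled FPKM gave 5227.79, 2188.81, 1699.92 and 1138.66 for the same genes. Posterior-mean TPM gave 2036.12 for Actg1, 1580.41 for Acta2 and a share of 99.4% for Actc1-201. Expected counts without length gave shares of 53.4% for Actb, 22.1% for Actg1, 16.1% for Acta2 and 7.70% for Actg2, and log2 ratios of 1.06 for Acta2 to Actg2 and -1.67 for smooth muscle to cytoplasmic.

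The log2 ratios of replicate 1 over replicate 2 with spike-in totals were 0.82 for Actb, 0.70 for Actg1, 0.72 for Acta2, 0.67 for Actg2, -0.0042 for Actc1 and -0.65 for Acta1. With deposited TPM they were 0.11 for Actb, -0.0212 for Actg1, 0.00497 for Acta2 and -0.0478 for Actg2, and with total gene counts Actb had 0.134. Adding the 3 pseudogenes to Actg1, an alternative chosen after seeing the data, gave a mean of 2147.20 TPM and a log2 ratio of 0.0532. Genes at least 2-fold apart numbered 2052, against 3952 with spike-in totals, 5738 with no count minimum and 568 with a minimum of 100 counts. Spike-in totals moved the log2 ratio of every gene up by 0.68 alike. For the lists they were an alternative added after seeing the data. With them 13 striated muscle genes were lower in replicate 1 and 2 at least 2-fold lower, and 0 mural genes and 0 cardiac markers were lower. At 5 TPM, 7 formins and other nucleators and 12 striated muscle genes were detected. Where a value moved, the cause was not tested beyond what each alternative changes. With 1 group of 2 pools, the spread between pools rests on a single difference.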

Other observations

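Genes that act on the actin protein itself were also measured. Of the 16 genes of the actin folding list 15 were detected, against 64.5% of protein-coding genes, with medians of 180 and 183 TPM in replicates 1 and 2. Their highest members were the chaperonin subunit genes Cct3 (371.87 and 399.82 TPM in replicates 1 and 2), Cct5 (367.45 and 390.28 TPM) and Cct6a (326.2 and 360.89 TPM). All 7 genes of the actin modification list were detected, at medians of 22.8 and 27.1 TPM. Setd3, the histidine methyltransferase of actin, led them with 71.36 and 76.79 TPM. Msrb1, a methionine sulfoxide reductase gene, had 30.31 and 33.73 TPM, and Ate1, the arginyltransferase that modifies beta actin, had 29.31 and 33.11 TPM. None of these 23 genes was 2-fold apart between the pools, against 9.81% of all genes compared and 1.13% of those with at least 1000 counts.

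Of 20 actin-related genes, whose proteins share the actin fold, 11 were detected, against 64.5% of protein-coding genes. The highest were Actr3 and Actr2 of the Arp2/3 complex (292.13 and 295.72 TPM for Actr3, 104.18 and 107.38 TPM for Actr2) and Actl6a, a subunit of chromatin remodelling complexes (104.77 and 110.31 TPM). At 0 counts in both libraries were 5 of the 20.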
